A study of Mus musculus with 16 samples.

Results

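Endogenous SETD5 was mapped by ChIP-seq in 3T3-L1 cells at 0 h and 6 h of adipocyte differentiation, and the enriched regions (islands) at 6 h were compared with those at 0 h. The list at 0 h held 2132 islands and the list at 6 h held 3293, together 5425 of the 324727 islands in the 12 lists used, and they came from 2 of the 16 samples of the series. A 6 h island was called kept where it overlapped a 0 h island by 1 bp or more and new where it did not. A 0 h island that overlapped no 6 h island was called lost. By this rule 2161 islands were new, 1132 were kept and 906 were lost. Each time point was a single library, so no difference between the times has a replicate check, and no test was made. Intervals given with shares are exact 95% binomial intervals over islands or genes, which are not replicates, and they cover counting error only.

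3T3-L1 is an established line of mouse preadipocytes, fibroblast-like cells that become adipocytes under hormonal stimulation. The cells were past confluence when differentiation medium with insulin, dexamethasone and isobutylmethylxanthine (MDI) was added; 0 h is before and 6 h after its addition. Both libraries came from cells whose labels name no virus, and the antibody was the mouse monoclonal IgG-F2104, raised against an amino-terminal fragment of SETD5. The comparison lists were SETD5 with a V5 tag at 0 h and 6 h (2 replicates each, with a virus named in the labels of replicate B and not in those of replicate A), H3K27ac in empty-vector cells on day 0 and day 2 (2 replicates each), and H3K4me1 on day 0 and day 2 (1 library each, labelled with the SETD-V5 virus). On day 0 the promoters of 8 of 8 fibroblast and preadipocyte marker genes, among them Col1a1, Pdgfra and Thy1, overlapped an H3K27ac island in both empty-vector replicates. None of 7 marker genes of blood, endothelial, epithelial and muscle cells did (0 of 7), although 2 of them, Cd68 and Cdh5, had an endogenous SETD5 island at 6 h.

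SETD5 is a SET-domain protein that works with the NCoR-HDAC3 corepressor, which removes acetyl groups from histones. MDI acts on preadipocytes along several routes: dexamethasone activates the glucocorticoid receptor, isobutylmethylxanthine raises cyclic AMP and so activates CREB, and insulin drives growth signalling. Within hours these signals turn on immediate-early genes and the early adipogenic factors C/EBPβ and C/EBPδ, ahead of Pparg and Cebpa. H3K4me1 marks primed and active enhancers, and H3K27ac marks active enhancers and promoters.

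The promoters of 6 genes are printed here as the 250 bases before the annotated gene start, on the strand of the gene (mm9). They were picked as examples and do not represent the classes. Dusp1, which encodes a MAP kinase phosphatase (chr17:26645465-26645714, minus strand), lay under a new island. Snai1, a transcriptional repressor of preadipocytes (chr2:167363445-167363694, plus), Btg1, an antiproliferative gene (chr10:96079385-96079634, plus), Ier2, an immediate-early gene (chr8:87186752-87187001, minus), and Mt1, a metallothionein (chr8:96702739-96702988, plus), lay under kept islands. At Mt1 the 0 h island reached neither the gene nor this promoter, which was covered at 6 h alone. The promoter of Ptn (chr6:36761362-36761611, minus), the gene of the growth factor pleiotrophin, lies just upstream of the highest-scoring lost islands. Capitals mark matches to the motifs searched.
Dusp1: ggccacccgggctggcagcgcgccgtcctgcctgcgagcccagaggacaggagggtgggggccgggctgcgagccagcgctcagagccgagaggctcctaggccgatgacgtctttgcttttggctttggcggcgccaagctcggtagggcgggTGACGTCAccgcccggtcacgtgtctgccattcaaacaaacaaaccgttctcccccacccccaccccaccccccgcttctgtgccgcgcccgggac
Snai1: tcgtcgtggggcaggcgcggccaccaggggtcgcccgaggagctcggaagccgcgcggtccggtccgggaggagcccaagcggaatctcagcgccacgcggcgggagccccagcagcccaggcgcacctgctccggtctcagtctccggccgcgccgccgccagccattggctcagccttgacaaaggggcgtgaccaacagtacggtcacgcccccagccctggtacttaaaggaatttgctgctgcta
Btg1: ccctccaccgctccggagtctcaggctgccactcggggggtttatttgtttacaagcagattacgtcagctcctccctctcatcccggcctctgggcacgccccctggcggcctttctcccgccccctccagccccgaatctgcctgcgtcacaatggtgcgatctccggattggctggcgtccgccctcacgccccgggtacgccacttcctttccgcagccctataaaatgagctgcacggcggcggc
Ier2: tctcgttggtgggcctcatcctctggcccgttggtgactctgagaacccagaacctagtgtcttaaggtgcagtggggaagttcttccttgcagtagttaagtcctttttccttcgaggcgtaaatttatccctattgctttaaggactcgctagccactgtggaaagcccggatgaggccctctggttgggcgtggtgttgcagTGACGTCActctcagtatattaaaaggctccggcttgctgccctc
Mt1: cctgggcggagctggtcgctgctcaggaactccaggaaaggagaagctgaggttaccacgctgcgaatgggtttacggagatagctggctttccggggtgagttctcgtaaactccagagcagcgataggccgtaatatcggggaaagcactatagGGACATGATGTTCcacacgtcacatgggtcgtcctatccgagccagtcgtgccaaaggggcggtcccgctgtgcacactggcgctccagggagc
Ptn: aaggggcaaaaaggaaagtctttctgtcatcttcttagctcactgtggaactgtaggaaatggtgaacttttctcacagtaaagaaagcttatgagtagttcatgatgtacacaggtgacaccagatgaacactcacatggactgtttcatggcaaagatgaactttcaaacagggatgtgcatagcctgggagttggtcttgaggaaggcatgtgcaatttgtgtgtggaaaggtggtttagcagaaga

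The motifs searched on both strands were TGACGTCA (cyclic AMP element), TGANTCA (AP-1), TTGCNNAA (C/EBP), GGAATG (TEAD) and the palindromic glucocorticoid element. Dusp1 held the cyclic AMP element with its first base at -96 from the gene start and Ier2 held it at -45, and Mt1 held the glucocorticoid element at -94. No match to these letters was present in the windows of Snai1, Btg1 or Ptn. Among the same windows of all 22367 protein-coding genes, 1.91% held the cyclic AMP element, 0.353% the glucocorticoid element, 6.00% AP-1, 9.16% C/EBP and 11.4% TEAD. A further set was the 824 genes with a new island whose promoter an island covered at 6 h and none at 0 h. Of their windows, 21 of 824 (2.55%, interval 1.58 to 3.87) held the cyclic AMP element and 3 of 824 (0.364%) the glucocorticoid element. Genes with a kept island and no new one, such as Mt1, were not in this set.

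The islands covered 10.6 Mb at 0 h and 23.3 Mb at 6 h, a ratio of 2.21, and the number of islands was 1.54 times as large. New islands made up 65.6% of the 6 h list (interval 64.0 to 67.2), and lost islands 42.5% of the 0 h list (interval 40.4 to 44.6). There were 2.39 times as many new as lost islands. The median distance from a new island to the closest 0 h island was 175 kb, and 10.7% lay within 10 kb. Lost islands lay a median of 69.2 kb from the closest 6 h island, and 20.1% were within 10 kb. Lists of the 2000 highest-scoring islands of each time gave 54.5% new and 49.1% lost, which lists of equal size bring close together by construction. The lists hold only regions past the caller's threshold, so an island that is not listed was below it. The lowest score listed was 26.8 at 0 h and 35.2 at 6 h.

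Within the 0 h list, lost islands scored lower than kept ones. Their median score was 31.1, and 80.1% scored below the median of that list (38.0), against a median of 59.2 and 27.7% for the 0 h islands that were kept. Within the 6 h list, new islands had a median score of 46.7, with 63.0% below the list median (53.0), and kept islands a median of 86.0, with 25.1% below it. Scores of the 2 lists start from different lowest values, 26.8 at 0 h and 35.2 at 6 h, and the median of lost islands lies below the latter. Where scores of both times are set side by side below, no test was made and the scales may differ. The score is the caller's sum of enrichment over an island, so it grows with length as well as with enrichment.

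Islands were longer at 6 h. The median length was 5600 bp for new islands, 5200 bp for kept islands at 6 h, 3600 bp for kept islands at 0 h and 3600 bp for lost islands. Lengths of new islands were closely grouped between a 10th percentile of 3600 bp and a 90th of 9400 bp, whereas kept islands ranged from a 10th percentile of 620 bp to a 90th of 15000 bp. Islands of 10 kb or longer made up 8.88% of new islands (192), 21.9% of kept islands (248) and 0.221% of lost islands (2). The longest new island was 69600 bp, the longest lost 51200 bp and the longest kept 301400 bp.

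**Figure D1:**
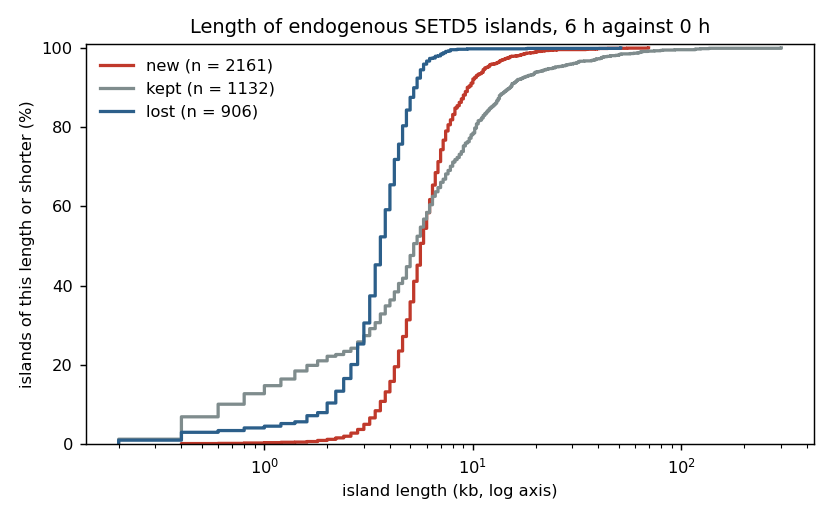
Share of islands (y axis, %) of a given length or shorter (x axis, kb, log axis) for 2161 new, 1132 kept (6 h lengths) and 906 lost islands. The curve of lost islands lies left of that of new islands (medians 3600 bp and 5600 bp), and kept islands reach both the shortest and the longest lengths.

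At kept islands both times could be paired. In 860 pairs 1 island of each time overlapped only the other, and 551 of these (64.1%) were longer at 6 h, 191 shorter and 118 equal in length. The median length of the pairs was 3200 bp at 0 h and 4700 bp at 6 h, and the median ratio within a pair was 1.2. A further 158 of the 6 h islands each spanned 2 or more 0 h islands, up to 5. At 6 h 63 of the 860 pairs scored at least 4 times as high as at 0 h. Most pairs scored too near the lowest listed score of 6 h (35.2) for a fall of that size to stay listed, so falls cannot be set beside them. The 50 pairs scoring 1000 or more at 0 h had a median ratio of 0.942, between 0.467 and 1.81. Scores are on the scale of each list and depend on the depth of its library, which the lists do not hold. The study's summary of its sequencing gives more total reads for the 0 h library than for the 6 h library.

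The strongest kept islands were the same blocks at both times. Leading them was an island at Mdm2, Cpm, Nup107 and Slc35e3 (chr10:116927401-117228800), with a score of 441703 at 0 h and 431645 at 6 h. Next was Cpsf6 (chr10:116811601-116904600), with 111233 and 105128. Mdm2 encodes the ubiquitin ligase of p53 and Cpsf6 a cleavage factor of messenger RNA. The 10 highest-scoring kept islands also held Cwc22, Lyz1 and Lyz2, Gm10800 and Gm10801, AY036118, the mitochondrial genome and 3 islands on chromosome 10 outside genes, of which 1 had Lin7a as the nearest gene. The 5 longest kept islands also took in Gm15319 (123600 bp, scores of 12978 at 0 h and 11127 at 6 h) and 4930467E23Rik with Gm6483 (116400 bp, 4286 and 7146). All of the 10 highest-scoring overlapped an island in each of the 10 other lists, those of the histone marks included. In all, 379 kept islands (33.5%) overlapped every other list, against 408 new islands (18.9%) and 41 lost islands (4.53%). Without the islands present in every other list, 70.6% of the 6 h islands were new and 54.0% of the 0 h islands were lost.

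Islands were unevenly spread over chromosomes. Chromosomes 2, 5 and 19 make up 15.0% of the sequenced bases and held 45.1% of new islands (975), 30.1% of kept islands (341) and 54.6% of lost islands (495). Chromosome 5 alone held 478 new islands, 3.24 per Mb, and 273 lost islands, 1.85 per Mb, whereas chromosome 9 held 32 new islands and 3 lost. The same 3 chromosomes held 18.2% of the H3K27ac islands of day 0, 19.6% of the SETD5-V5 islands of 6 h and 22.9% of the H3K4me1 islands of day 0. With those chromosomes left out, 60.0% of the 6 h islands were new and 32.5% of the 0 h islands were lost.

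Introns held the largest share of new islands and intergenic sequence the largest share of kept islands, though not a majority of the kept. At their midpoints, 53.1% of new islands were in introns (interval 50.9 to 55.2), 18.8% were intergenic (17.2 to 20.5), 11.1% in promoters (9.81 to 12.5), 10.3% at gene ends and 6.66% in exons. Of kept islands 46.3% were intergenic (43.4 to 49.3) and 29.8% intronic (27.1 to 32.6), with 9.28% in promoters. Lost islands were 45.7% intronic and 38.5% intergenic, with 5.30% in promoters (3.93 to 6.96). Of all bases of the genome, 56.9% were intergenic, 35.9% intronic, 2.45% in promoters, 2.55% at gene ends and 2.28% in exons. A promoter was taken as the 1000 bp before a start site with the 100 bp after it, and a gene end as the 100 bp before the last base with the 1000 bp after it. The intergenic share of kept islands was 39.2% for the 672 that overlapped H3K27ac in any of 4 lists and 56.7% for the 460 that did not. Near an assembly gap lay 12.9% of kept, 1.62% of new and 5.63% of lost islands. Of the kept islands near a gap, 61.0% were intergenic.

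**Figure D2:**
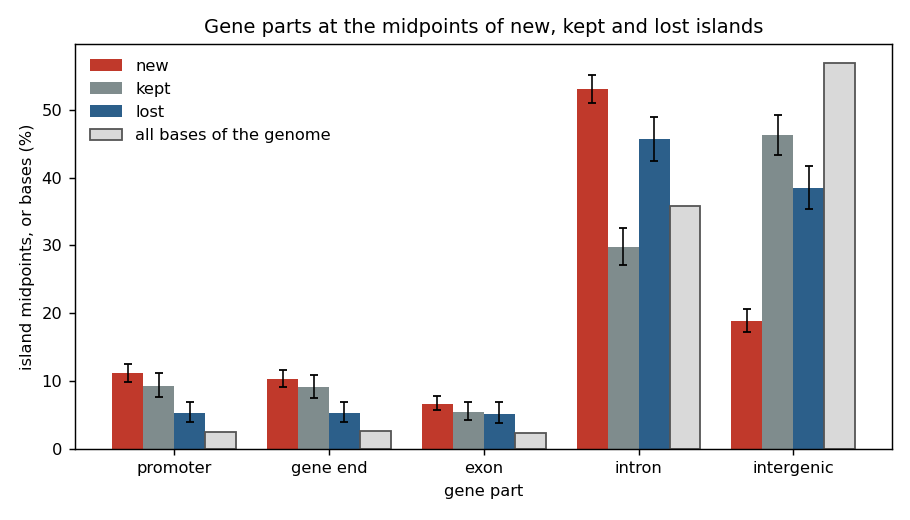
Share (y axis, %) of the midpoints of new, kept and lost islands in each gene part (x axis), with exact 95% binomial intervals as error bars, beside the share of all genomic bases. Introns hold 53.1% of new islands and intergenic sequence 46.3% of kept islands, and each class exceeds the genome's 2.45% in promoters.

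The midpoint understates how many islands reach a start site, since they are several kb long. A start site of a protein-coding gene lay inside 28.3% of new islands (611, interval 26.4 to 30.2), 23.0% of kept islands (260) and 6.402% of lost islands (58, interval 4.90 to 8.20). An annotated gene end lay inside 18.6% of new, 17.8% of kept and 6.62% of lost islands. A whole protein-coding gene lay inside 137 new islands (6.34%), 126 kept islands (11.1%) and 4 lost islands (0.442%). Similar shares of new and lost islands lay within a gene body without reaching either end, 45.3% and 46.5%. Islands outside any protein-coding gene were 16.2% of new, 47.9% of kept and 41.2% of lost islands.

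A new island overlapped the body or the 1000 bp upstream of 1554 of 22367 protein-coding genes (6.95%), a kept island 619 (2.77%) and a lost island 489 (2.19%). Any 6 h island did so for 9.21% and any 0 h island for 4.48%. Counted by gene, 1371 (6.13%) had islands at 6 h alone, 689 (3.08%) at both times and 313 (1.4%) at 0 h alone. Genes with a lost island were long, with a median of 55.5 kb against 25.5 kb for genes with a new island, 21.4 kb for genes with a kept island and 15.4 kb for all. Of the 7456 genes of 29.4 kb or longer, 9.59% had a new and 4.56% a lost island, and of the 7457 genes of up to 7.45 kb, 4.87% and 0.536%.

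Top1, which encodes DNA topoisomerase I, had no island at 0 h and at 6 h an island of 69600 bp over its start and body (chr2:160471401-160541000, score 1250). Vcan, the matrix proteoglycan versican, had none at 0 h and 3 at 6 h, the longest 54800 bp (score 1078). Uap1, an enzyme of amino-sugar synthesis, lay under 44400 bp (score 1099) and Xdh, xanthine dehydrogenase, under an island of 35200 bp (score 705). Others among the 10 highest-scoring new islands were at Rgs2, a regulator of G protein signalling (13400 bp, score 955), Gas6 and Fam70b, the ribosomal protein gene Rpl3 (10400 bp, score 809), Mcl1 and Adamtsl4, and Fam129b and Lrsam1. Fstl1, a secreted glycoprotein, was under a further island of 40200 bp, among the 5 longest. Each of these highest-scoring or longest islands overlapped H3K27ac in all 4 empty-vector lists.

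Broad coverage at 6 h was also found where a smaller island was listed at 0 h. Col4a1, a basement membrane collagen, had 1 island of 3200 bp at 0 h (score 26.8, the lowest score of any kept island at 0 h) and at 6 h lay whole under an island of 135600 bp (score 3482). Its neighbour Col4a2 had no island at 0 h and 89.2% of its body covered at 6 h. Tgfbr3, the TGF-β coreceptor betaglycan, was 10.7% covered at 0 h and 97.8% at 6 h. Med13l, a Mediator subunit, was covered over 15400 bp at 0 h and 184517 bp at 6 h, the most of any gene. The 10 genes with the most covered bases at 6 h also included Glis3 (2600 bp and 128367 bp), Sh3pxd2a (3200 bp and 103038 bp), Rasa3 (0 and 99854 bp) and Apbb2 (11267 bp and 99667 bp). C130026I21Rik (107077 bp and 128077 bp) and Gm20388 (51000 bp and 103000 bp) were the only members of the 10 with more than 20 kb covered at 0 h.

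Over all protein-coding genes of 10 kb or longer, 47 of 13506 (0.348%) had at least 50% of the body covered at 0 h and 192 (1.42%) at 6 h, and 37 did at both times. Of the 192, 107 had no covered base at 0 h. Among the 4841 genes of 50 kb or longer, 4 reached 50% at 0 h and 30 at 6 h, with 3 at both times (Cpm, Cwc22 and Sfi1). The other at 0 h was Ptn, which had none at 6 h. Among the others, picked out after their values were seen, were Vdr, the vitamin D receptor (8.18% and 100%), Il1r1, the interleukin-1 receptor (0% and 89.0%), Lrp1 (0% and 61.2%) and Tead4 (0% and 53.1%).

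**Figure D3:**
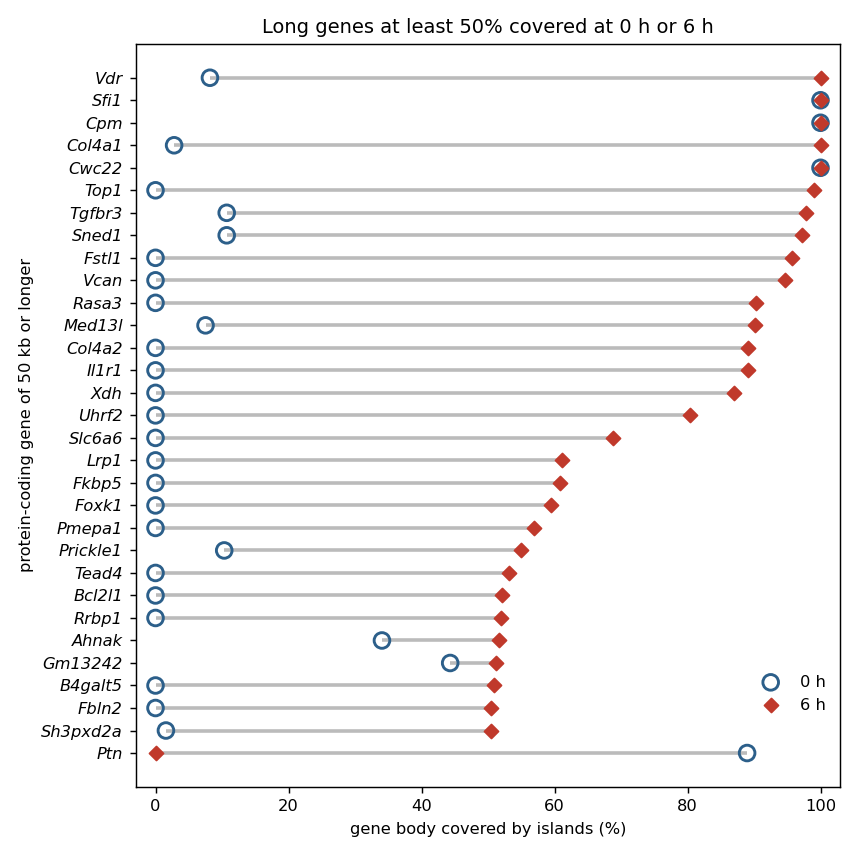
Percentage of the gene body covered by islands (x axis) at 0 h (open circles) and 6 h (diamonds) for the 31 protein-coding genes of 50 kb or longer with at least 50% covered at either time. At 0 h 18 of the 30 covered at 6 h had no covered base, Cpm, Cwc22 and Sfi1 were at 100% at both times, and Ptn was the only gene covered at 0 h (89.0%) and not at 6 h.

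Of 18 genes that respond to glucocorticoids, 13 had an endogenous SETD5 island at 6 h and 0 at 0 h. Over all protein-coding genes the shares were 9.21% and 4.48%. In replicates A and B, SETD5-V5 islands lay at 15 and 9 of the 18 at 0 h and 17 and 16 at 6 h. The V5 shares over all protein-coding genes were 25.6% and 11.9% at 0 h and 48.1% and 32.6% at 6 h. New islands lay at 11 of the 18 (61.1%, against 6.95% of all protein-coding genes), 22 islands in all, and Mt1 and Mt2 shared 1 kept island that at 0 h did not reach them. Fkbp5, the receptor's cochaperone and a classic target, had 9 new islands over 60.8% of its body, the strongest with a score of 186. Dusp1 lay under 13600 bp (score 587), Errfi1, a feedback inhibitor of EGF receptor signalling, under 22000 bp (score 540), and Cebpd, annotated here as a pseudogene although it encodes C/EBPδ, under 6400 bp (score 233). Ddit4, an inhibitor of mTORC1, scored 222, Klf9 208 at the strongest of 3 islands, and Tsc22d3 (GILZ) 138. Sgk1, Per1, Nfkbia and Angptl4 scored from 133 down to 42.1.

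Some cyclic AMP-responsive and immediate-early genes had an endogenous island before MDI. Of 18 cyclic AMP-responsive genes, 3 had an island at 0 h and 12 at 6 h, with new islands at 8 and kept ones at 4. Over all protein-coding genes the shares were 4.48% at 0 h and 9.21% at 6 h. SETD5-V5 islands at 0 h lay at 15 and 9 of these 18 (replicates A and B), against 25.6% and 11.9% of all protein-coding genes. The glucocorticoid list had the same counts. Dusp1 and Per1 are members of both lists. Sik1, a kinase that restrains CREB coactivators, had 2 islands of 3400 bp and 3600 bp at 0 h and 1 of 20400 bp at 6 h (score 778). Id1, a helix-loop-helix inhibitor, had 3200 bp (score 57.5) and then 10400 bp (score 1030). Rgs2 and Dusp1 had no island at 0 h. Of 18 immediate-early and AP-1 genes, 4 had an island at 0 h and 10 at 6 h. SETD5-V5 islands at 0 h lay at 16 and 8 of them, against the same 25.6% and 11.9% of all protein-coding genes. Fosl2, Junb, Ier2 and Jund had kept islands, and at Fosl2 the length was 6400 bp at 0 h and 31200 bp at 6 h (scores 52.1 and 1149). Fosl1 (score 465), Myc (260), Jun (131), Ier3 (85.7), Mafk (52.5) and Ier5 (50.8) had new islands. At Ier2 the 1800 bp island of 0 h (score 38.0) reached into the printed promoter, and the 6 h island spanned 9400 bp (score 315).

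Snai1 and Btg1 were occupied at both times. The island at Snai1 measured 6000 bp at 0 h (chr2:167363601-167369600, score 94.6) and 11400 bp at 6 h (score 930). At Btg1 it measured 1600 bp at 0 h (chr10:96079401-96081000, score 45.6), over 23.5% of the gene, and 13400 bp at 6 h (score 725), over all of it. Each 6 h island overlapped SETD5-V5 at both times and H3K27ac on both days, in both replicates. Of 16 antiproliferative genes 4 had an island at 0 h and 9 at 6 h, with Cdkn1b and Cdkn1a, the inhibitors p27 and p21, among those occupied at both times. The related Tob2 (score 236), Tob1 (133) and Btg2 (67.3) and the stress genes Gadd45g (138) and Gadd45b (66.5) had new islands. Of 22 anti-adipogenic and preadipocyte factors, 6 had an island at 0 h and 11 at 6 h. Over all protein-coding genes the shares were 4.48% and 9.21%.

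Among 23 adipogenic regulators, 3 had an island at 0 h and 7 at 6 h, against 4.48% and 9.21% of all protein-coding genes. Cebpb was covered by a kept island of 5400 bp at 0 h (score 91.7) and 13800 bp at 6 h (score 1472). The islands listed at Pparg did not overlap between the times. Lost islands lay at its first start (3000 bp, score 28.5) and in an intron (7200 bp, score 48.7). New islands lay in introns (6400 bp and 7600 bp, scores 52.1 and 51.8). The score of 28.5 is below the lowest listed at 6 h (35.2), and both new islands scored below the 6 h list median (53.0). Whether SETD5 changed sites at Pparg was not tested. Cebpa had none at either time. Klf5, Rxra and Zfp423 had new islands, the strongest at each scoring between 36.01 and 56.0, and Nfia had a lost and a new one (41.3 and 41.2). Of 19 terminal adipocyte genes, 0 had an island at 0 h and 4 at 6 h, namely Scd1 (score 227), Lpl (133), Pnpla2 (54.0) and Fasn (49.9). Setd5 itself had a new island over its start (6400 bp, score 64.7), and of the 13 SETD5 complex genes Gps2 also had an island at 6 h (score 108).

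Ribosomal protein and histone genes had few islands at 0 h and many at 6 h. Of 82 cytosolic ribosomal protein genes, 2 (Rpl10a and Rpl37) had an island at 0 h and 51 at 6 h, with new islands at 48 (58.5%). Rpl3, Rpl12 (score 489) and Rplp0 (422) scored highest, followed by Rps2 (293), Rpl10a (279) and Rps12 (248). Of 67 replication-dependent histone genes, 1 (Hist4h4) had an island at 0 h and 26 at 6 h, but these genes are clustered and 12 new islands and 1 kept island accounted for them. Both families have near-identical copies, among which short reads are hard to place, so single members are uncertain. With the promoter alone counted, 1 ribosomal protein gene had an island at 0 h and 29 at 6 h. The V5 lists showed the same families: ribosomal protein genes with a SETD5-V5 island numbered 50 and 24 at 0 h and 80 and 76 at 6 h in replicates A and B, and 80 of 82 had an H3K27ac island on day 0 in each replicate. H3K27ac on day 0 lay at 53.2% and 52.7% of all protein-coding genes. Of all protein-coding genes, 25.6% and 11.9% had a SETD5-V5 island at 0 h, and 48.1% and 32.6% at 6 h. Endogenous islands lay at 4.48% of them at 0 h and 9.21% at 6 h.

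Each of the other lists also had more genes with an island at 6 h than at 0 h, as had all protein-coding genes (9.21% and 4.48%). Of 24 extracellular matrix genes, 7 had an island at 0 h and 15 at 6 h, of 20 actin cytoskeleton genes 3 and 8, of 20 inflammatory and growth factor genes 2 and 7, of 14 YAP-TEAD targets 2 and 4, and of 16 G1 and clonal expansion genes 1 and 3. In the structural noncoding RNA list, 4 of 10 had an island at 0 h and 7 at 6 h. Malat1, an abundant nuclear RNA, had 10600 bp at 0 h (score 898) and 62800 bp at 6 h (score 8666). The 6 h island also held Neat1, which had another island at 0 h (score 829). Both genes were covered whole at both times. Vegfa (score 483), Igfbp4 (341) and Socs3 (32.7 at 0 h and 346 at 6 h) led the growth factor list, and Actb was covered whole at both times (scores 387 and 584).

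**Figure D4:**
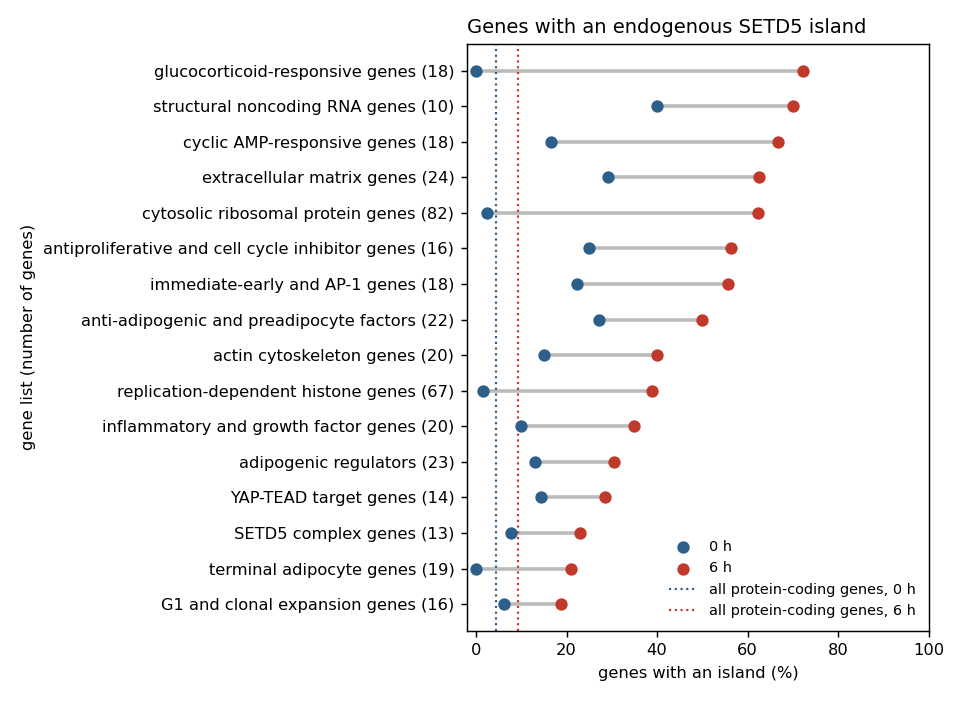
Percentage of the genes of 16 lists (y axis, number of genes in brackets) with an island at 0 h and at 6 h (x axis), with dotted lines at the shares of all protein-coding genes (4.48% and 9.21%). Glucocorticoid-responsive genes (0 and 13 of 18) and ribosomal protein genes (2 and 51 of 82) have the widest gaps, and every list lies above the dotted line of 6 h. The lists were chosen with earlier results of these data known. H3K27ac of day 0 lay at 53.2% and 52.7% of all protein-coding genes in replicates A and B. It lay at higher shares of each list except terminal adipocyte genes (10 of 19).

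The strongest lost islands were at Ptn. Its 6 islands at 0 h covered 89.0% of the gene (85138 bp), from 3000 bp to 51200 bp long with scores from 33.4 to 898, and none overlapped a 6 h island. Of the 10 highest-scoring lost islands 4 were at Ptn. The longest (chr6:36708601-36759800) stopped short of the gene start and overlapped SETD5-V5 at both times and H3K27ac on both days in both replicates, whereas the island at the gene end (chr6:36661601-36667400) overlapped SETD5-V5 in both replicates at 0 h and neither at 6 h, and H3K27ac in both on day 0 and neither on day 2. Alb, the albumin gene, had 3 lost islands (scores 33.2 to 83.6) and F3, tissue factor, had 3 (31.7 to 76.0). Lmtk2 (score 68.9) and Depdc5 (9400 bp, score 60.3) had a lost island over the gene start, and Depdc5 had 2 new ones further along. The other lost islands among the 10 highest-scoring were at Col1a2, near Ifi203 and at an intergenic site (chr15:15092201-15097800).

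Fibrillar collagen genes differed among themselves. Col1a2 had 5 islands over 86.4% of its body at 0 h, of which 3 were lost, and at 6 h 2 islands covered 12330 bp against 31743 bp. Col3a1 was covered over 15600 bp at 0 h and 6018 bp at 6 h. Thbs2, a thrombospondin and not a collagen, had 1 island over its start at 0 h and none at 6 h. The score of that island, 32.7, is below the lowest listed at 6 h (35.2). Col1a1 had 10800 bp at 0 h and 15356 bp at 6 h. Of the 24 extracellular matrix genes, 10 had a new, 6 a kept and 5 a lost island. Over all protein-coding genes the shares were 6.95%, 2.77% and 2.19%. The 5 with a lost island were the most of any list, next to 4 of 22 anti-adipogenic and preadipocyte factors. Of all protein-coding genes of 29.4 kb or longer, 4.56% had a lost island. The matrix genes with a new island included Col4a2, Col6a1 (score 169), Fbln2 (151), Col6a2 (129), Fbn1 (114), Sparc (89.1), Col5a1 (67.9), Ptx3 (62.6) and Fn1 (54.3).

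New islands overlapped SETD5-V5 more often at 6 h than at 0 h, and kept islands less often. The V5 share of new islands was 65.0% and 38.3% at 0 h (mean 51.7% ± 18.9, SD, n = 2) and 82.0% and 75.9% at 6 h (79.0% ± 4.29). For kept islands it was 84.0% ± 3.06 at 0 h and 73.9% ± 2.12 at 6 h, and for lost islands 31.1% ± 2.97 and 38.5% ± 3.12. 52.8% ± 0.234 of lost islands overlapped no V5 island at either time, against 18.3% ± 3.21 of new islands. A V5 island at 6 h alone was found at 30.01% ± 15.7 of new, 16.1% ± 3.20 of lost and 5.04% ± 0.999 of kept islands. The V5 lists covered 1.38% to 3.35% of the sequenced bases at 0 h and 5.78% to 7.67% at 6 h. The part of that difference in list size in these shares was not tested.

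**Figure D5:**
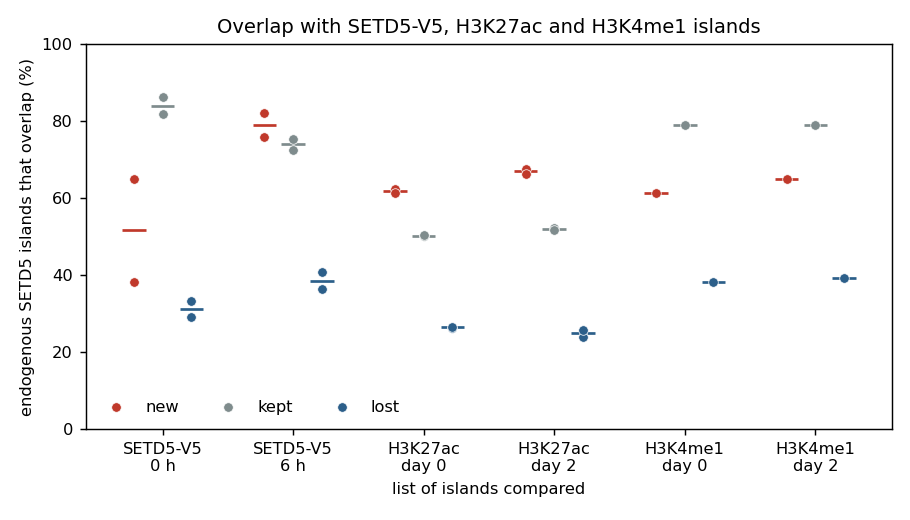
Percentage of new, kept and lost islands (y axis) that overlap SETD5-V5, H3K27ac or H3K4me1 islands (x axis); points are single lists, and bars their mean. Lost islands are lowest in each list compared, kept islands highest for H3K4me1 (78.9% on both days), and new islands highest for H3K27ac.

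Histone marks split the classes in the same way before and after MDI. H3K27ac on day 0 overlapped 61.8% ± 0.851 of new, 50.3% ± 0.250 of kept and 26.5% ± 0.156 of lost islands, and on day 2 66.9% ± 1.01, 51.9% ± 0.312 and 24.9% ± 1.33 (SD, n = 2). H3K4me1 on day 0 overlapped 61.4% of new (interval 59.3 to 63.5), 78.9% of kept (76.4 to 81.2) and 38.3% of lost islands (35.1 to 41.6). On day 2 it overlapped 65.0%, 78.9% and 39.3%. These lists cover 4.04% to 5.19% of the sequenced bases. Longer islands overlap more often, and with only the island midpoint required to lie in an H3K27ac island of day 0 the shares were 37.2% for new and 16.2% for lost islands.

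On day 0, 49.6% ± 0.524 of new islands overlapped both H3K27ac and H3K4me1, 12.3% ± 0.327 H3K27ac alone, 11.8% ± 0.524 H3K4me1 alone and 26.3% ± 0.327 neither. Kept islands had H3K4me1 alone at 32.6% ± 0.312 and both marks at 46.3% ± 0.312, and 57.3% ± 0.0780 of lost islands had neither. Of islands with H3K4me1 alone on day 0, H3K27ac was present on day 2 at 43.0% ± 1.90 of the new, 14.9% ± 1.01 of the kept and 22.9% ± 2.74 of the lost. Over all islands of a class, H3K27ac on day 2 and not on day 0 was found at 8.28% ± 0.458 of new, 5.70% ± 0.562 of kept and 5.30% ± 0.312 of lost islands, and H3K27ac on day 0 and not on day 2 at 3.17% ± 0.294, 4.06% ± 0 and 6.90% ± 0.859. The H3K4me1 libraries carry another virus label than the endogenous ones, and the effect of that was not tested.

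In the 1000 bp about the island midpoint, the glucocorticoid element was present at 57 of 2161 new islands (2.64%, interval 2.00 to 3.40), 11 of 1131 kept islands (0.973%, interval 0.486 to 1.73) and 12 of 906 lost islands (1.32%, interval 0.686 to 2.30), against 1.66% of windows of that length across the genome. The cyclic AMP element was present at 0.740% of new, 0.265% of kept and 0.442% of lost islands, against 0.549%. AP-1 matches were at 25.9%, 22.3% and 27.8% (genome 26.6%), C/EBP at 36.05%, 34.6% and 37.2% (38.9%), and TEAD at 41.7%, 42.7% and 39.7% (43.9%). None of these 3 motifs was more frequent in new islands than in the genome. The median GC content of the windows was 45.7% for new, 43.2% for kept and 42.0% for lost islands, and 41.8% of all sequenced bases are G or C. The midpoint of a broad island need not be its summit, which the lists do not give.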

How the data were processed

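Endogenous SETD5 islands of 3T3-L1 cells at 0 h and 6 h were compared. The authors aligned reads to the mm9 genome (Bowtie2 or ELAND), then called islands in each library separately with SICER, joining enriched windows across gaps; replicates were not pooled. The deposited lists give each island's position and a score, the authors' caller value, and no read counts; depth per library is not in them, and scores of different lists were set side by side without a test.

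Island positions were converted to coordinates counted from 1. All island starts were checked to be multiples of the window, and the smallest gap between SETD5 islands was 800 bp. New, kept and lost islands were defined by overlap of 1 bp or more. Gene parts at midpoints, and genes (body and 1000 bp upstream), came from the GENCODE annotation of NCBIM37, the genome also read for motifs; the mitochondrial island was left out there. The gene lists (16) and members were chosen with earlier results of these data known. Named genes were those at the 10 highest-scoring islands of each class (leaving out islands within 100 kb of assembly gaps of 50 kb or longer), at the 5 longest, Snai1, Btg1, Cebpa, Pparg, Cebpb, Cebpd and Setd5, up to 6 per list by score, and the 10 protein-coding genes with most covered bases. Further list members and long genes were named after their values were seen. Python 3.11.15, numpy 2.4.6, pandas 2.3.3, scipy 1.17.1 and matplotlib 3.10.9 were used, and the code was tested on simulated islands. Intervals are exact binomial. The 4 H3K27ac lists of SETD5-transduced cells were not used here, and a few items that the naming rule would give are not reported here.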

Additional observations from a re-analysis of the deposited data

How the results depend on the processing

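No paired analysis was possible because each time point of endogenous SETD5 was a single library. New islands were 65.6% of the 6 h list and lost islands 42.5% of the 0 h list. These became 54.5% and 49.1% in the 2000 highest-scoring islands of each list (number ratio 1), 57.7% and 29.3% above each list's median score, 68.3% and 44.9% without islands near assembly gaps, 72.1% and 47.7% for islands of at least 2000 bp, and 74.8% and 47.5% when 50% of the island had to overlap. Merging islands within 1000 bp gave 44.7% lost. Some alternatives were chosen after seeing the data: without chromosomes 2, 5 and 19 the shares were 60.0% and 32.5%, and without islands in every other list 70.6% and 54.0%.

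Among the 2000 highest-scoring islands the median length was 7000 bp for new and 6000 bp for kept islands. The intergenic share of new islands was 14.8% in those lists, 14.3% above the median score, 12.3% with parts by any overlap, 16.8% with promoters within 2500 bp and 21.2% with protein-coding genes only. That of kept islands was 51.5% above the median score, 36.3% by any overlap, 42.9% with the wide promoter, 54.2% with protein-coding genes only, 52.2% without the 3 chromosomes and 50.3% without islands in every other list. The promoter share was 49.3% of new and 18.98% of lost islands by any overlap, 40.1% and 19.4% with the wide promoter, and 9.44% of new islands with protein-coding genes only.

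Protein-coding genes with a new island were 4.39% in the equal lists, 6.08% by nearest start site within 50 kb, 7.78% under 50% overlap, 3.61% by promoter only and 5.08% without the 3 chromosomes. Those with a lost island were 2.41% under 50% overlap, 0.367% by promoter only and 1.12% without the 3 chromosomes. H3K27ac of day 0 lay at 35.1% of new and 16.0% of lost islands when 50% of the island had to be covered, 37.2% and 16.2% by midpoint (chosen after seeing the data), and 52.0% and 17.2% above the median score. SETD5-V5 of 6 h lay at 71.4% and 29.97%, 70.5% and 29.2%, and 71.9% and 25.1% under the same settings. Without either replicate, SETD5-V5 ranged from 75.9% to 82.0% of new and 36.3% to 40.7% of lost islands, and H3K27ac from 61.2% to 62.4% and 26.4% to 26.6%. The glucocorticoid element was in 1.16% of new and 0.442% of lost islands in windows of 400 bp. Of 102 alternative values of the main comparisons, 46 stayed within a set limit (the interval, SD or a fixed ratio) and 56 did not. New over lost islands for promoters, lengths, genes, SETD5-V5, H3K27ac, H3K4me1 and the glucocorticoid element kept that order under the alternatives run for each. So did kept over new for intergenic sequence and H3K4me1 of day 0. An island missing at 1 time was below that library's threshold. The lists hold no read depth, although the study's summary gives fewer total reads for the 6 h library, which had the longer list.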
